A study of Mus musculus with 24 samples.

Results

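Whole blood of unirradiated male C57BL/6J mice was compared between old animals of 21 months and young animals of 2 months. The 12 arrays labelled unirradiated, 6 of each age, were taken of the 24 in the series, and the other 12 came from mice given 4 Gy of x-rays. Each array held the RNA of 1 mouse. Unirradiated mice were sham-irradiated, and blood was drawn by cardiac puncture 24 h later into a solution that preserves RNA. Globin RNA was reduced before labelling, so the globin probes report only what that step left. Probes were kept where the signal was well above background on all 12 arrays, which left 16829 of 39429 probes and 13553 genes. A level is given below as log2 of the signal relative to the median of those probes on the same array, and a difference is the old mean minus the young mean of such levels. Differences were tested with limma across all 13553 genes and called at p below 0.005 together with a Benjamini-Hochberg adjusted p below 0.05.

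Blood RNA is a mixture from granulocytes, monocytes, lymphocytes, platelets and young red cells. In mice lymphocytes normally outnumber neutrophils, and with age the naive T cell pool shrinks as the thymus involutes while marrow output leans toward myeloid cells. Neutrophils are short-lived phagocytes whose transcripts encode granule proteins, formyl peptide receptors and calprotectin, and CD4 T cells coordinate adaptive responses. In such bulk samples fewer cells of a type and less RNA per cell cannot be told apart.

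The arrays of the 2 ages were not processed side by side. All young arrays lay on slides 1 to 3 and were scanned on 1 day, and all old arrays lay on slides 4 to 6 and were scanned on another day. Age, slide and scan day therefore cannot be told apart in any value below. Old replicates 1 and 6 were labelled as separate mice, but their levels differed with an SD of 0.187, against 0.413 to 0.694 in the 14 other pairs of old arrays and 0.331 to 0.563 in the 15 young pairs. Over 204 probes with repeat spots the median absolute difference between the 2 arrays was 0.087, below the 0.119 and 0.155 between spots of the same probe within them. They were therefore averaged and counted as 1 sample, which gave 6 young and 5 old samples. The median signal over all spots of an array was between 14.5 and 44.8, the share of spots well above background was between 49.7% and 64.4%, and the number of arrays limits the precision.

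Of the 13553 genes, 4166 were called, or 30.7%. The old mice were higher for 2134 genes (15.7%) and lower for 2032 (15.0%). This balance depended on the scaling, with 435 higher and 2075 lower under spike-in scaling and 8012 higher and 1291 lower when each array was scaled to the median of all its spots. The values of the 2 ages did not overlap for 3328 genes (24.6%), of which 1666 were higher and 1662 lower in the old mice. The median difference over all genes was 0.17. The largest rises included neutrophil markers such as Cxcr2 and Fpr2, whereas the largest falls included genes best known outside blood, such as Aanat, an enzyme of melatonin synthesis. The median SD between mice was 0.22 in the young and 0.28 in the old samples, and it was larger in the old for 8759 genes.

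**Figure D1:**
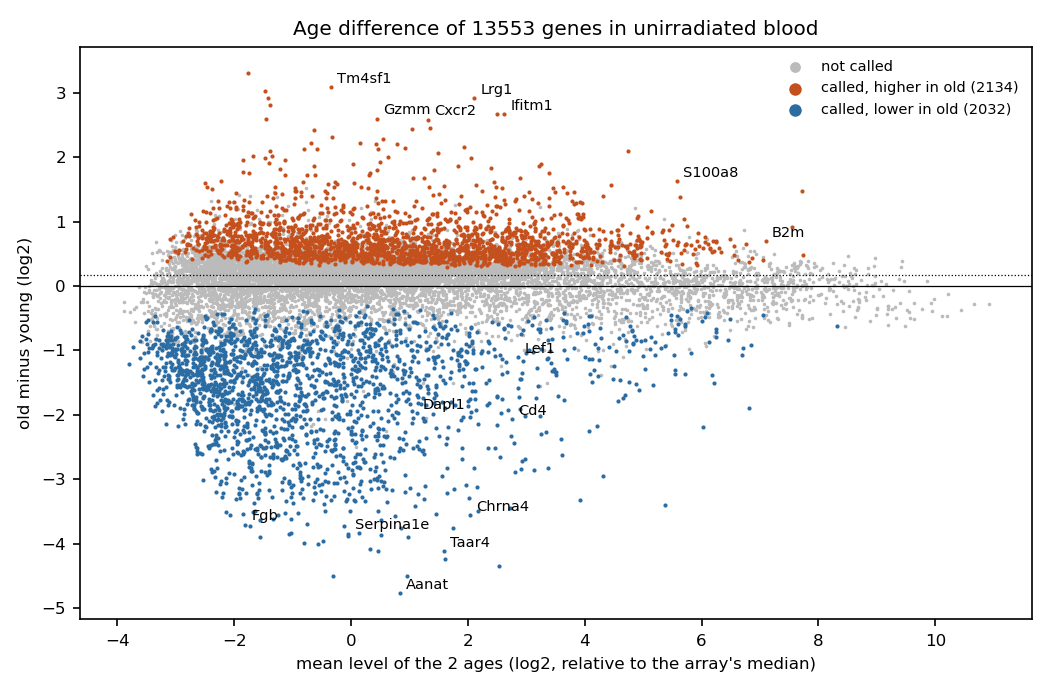
Each point is 1 of 13553 genes, with its mean level over both ages on the x axis (log2 relative to the array's median) and the old minus young difference on the y axis (log2). The 2134 genes called higher and the 2032 called lower are coloured, the dotted line is the median difference of 0.17, and the falls reach further from it than the rises.

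The oligonucleotides behind the largest changes are shown because the composition of the probes differed between rises and falls. The first 30 of 60 bases of each probe are given, 5′ to 3′, with runs of 4 or more C or T in capitals. Coordinates are those of the array's annotation on mm9. Of the largest rises, the Tm4sf1 probe (chr3:57091569-57091628, minus strand) rose by 3.08 and holds 42 C or T, and the Cxcr2 probe (chr1:74206886-74206945, plus strand) rose by 2.58 and holds 20. Of the largest falls, the Aanat probe lies at chr11:116457407-116457466 on the plus strand and holds 41 C or T, and the Ssx9 probe lies at chrX:8327780-8327839 on the plus strand and holds 26.
Tm4sf1: gtataTTTTCCCTgtgttgtgagaCTTTgc
Cxcr2: aagggtggggagttcgtgtagaagacacag
Aanat: agcaagcagCCTTCaTCTTgCCTTCTgcta
Ssx9: ataagtattcgtaatgtagaagaaagactt

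Several genes were measured by probes that disagreed. For Rrp7a, a gene of ribosome assembly, the probe at chr15:82944986-82945045 (minus strand) was lower in the old mice by -4.39 and the probe at chr15:82946279-82946338 (minus strand) was higher by 0.37, with 38 and 26 C or T. For Wdr45, an autophagy gene, the probe at chrX:7299071-7299130 (plus strand) gave -3.15 with 38 C or T, and that at chrX:7305210-7305269 (plus strand) gave 0.53 with 24. The lower probe of each pair is printed first.
Rrp7a, lower: agaccaCCTCTCgCTTTgTCTTaTCCCTCC
Rrp7a, higher: gatgcaCCTCagaattaggcctggccaggg
Wdr45, lower: ttgCCCCTCTaTCTCTCCgtgagttaacga
Wdr45, higher: cagggacccaaagggattatactaatccaa

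The gene with the largest rise among genes whose groups did not overlap was Tm4sf1, which encodes a small 4-span membrane protein. Its level was between -1.97 and -1.81 in the 6 young mice with a median of -1.88, and was 0.66, 0.71, 1.49, 1.64 and 1.46 in the old samples, listed here and below as replicates 1 and 6 averaged, then 2, 3, 4 and 5. Every old sample thus stood far above a tight young group. The difference was 3.08 (SE 0.18, adjusted p = 2.33e-07 by limma), or 8.46-fold. In the irradiated mice, which are other animals whose arrays were scanned on the same day as those of their age group, all 6 old arrays (2.76 to 3.50) were again above all 6 young ones (-0.84 to 0.19).

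Several of the other large rises were on the list of neutrophil markers. Cxcr2, the chemokine receptor that draws neutrophils out of the marrow, had levels from -0.84 to 0.88 in the young mice with a median of 0.09, and of 1.57, 2.76, 1.65, 4.12 and 2.94 in the old. The groups did not overlap, and the difference was 2.58 (SE 0.45, adjusted p = 0.000676 by limma), or 5.99-fold. S100a8, one chain of calprotectin, ranged from 3.98 to 5.37 in the young mice with a median of 4.83 and was 5.62, 6.05, 5.81, 7.63 and 6.88 in the old, a 3.10-fold rise. S100a9, the other chain, ranged from 6.12 to 7.57 with a median of 7.06 in the young and was 7.67, 8.16, 8.26, 9.46 and 8.78 in the old, a 2.79-fold rise. Old replicate 4 was the highest sample for all 3 genes. Mrgpra2a and Mrgpra2b, G protein-coupled receptors of mouse neutrophils, rose by 3.03 and 2.92, but they are close paralogs whose probes may share signal, as may Stfa2 and Stfa2l1 (2.45 and 2.44), which encode stefin A protease inhibitors. Lrg1, a secreted leucine-rich glycoprotein stored in neutrophil granules, rose by 2.92, the IL-1 decoy receptor Il1r2 by 2.42, the formyl peptide receptor Fpr2 by 2.28, and Clec4e, the lectin receptor Mincle, by 2.21. The remaining large rises were Igfbp6 (2.81), Ifitm1 (2.67), Chil1 (2.22), the long noncoding RNA Mirt2 (2.22) and Gzmm.

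**Figure D2:**
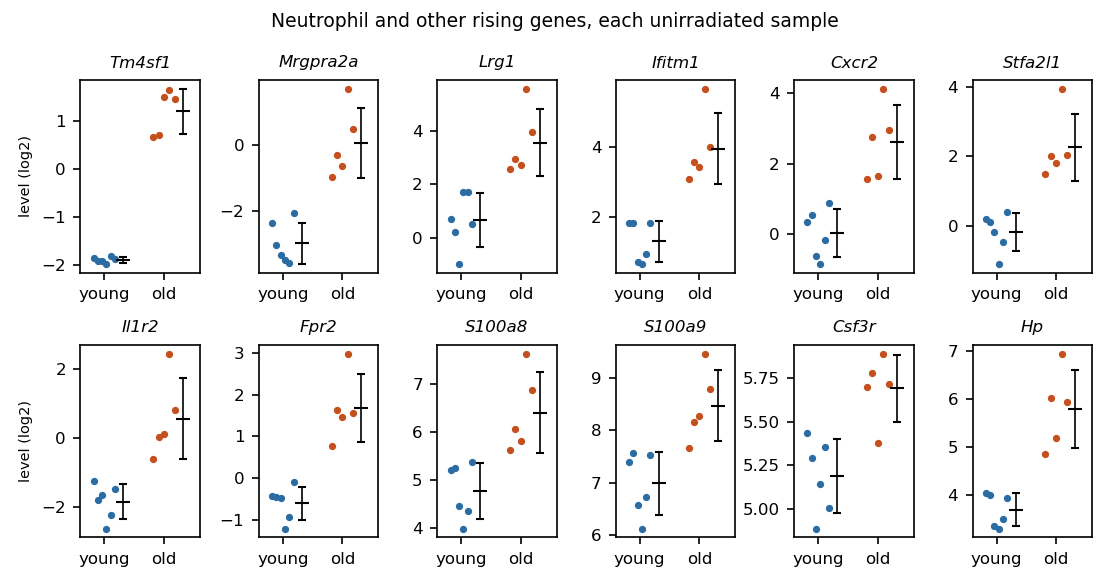
Level of 12 rising genes (log2 relative to the array's median) in each of 6 young (blue) and 5 old (orange) unirradiated samples, with black bars for the mean and SD. Old replicate 4 is the highest point for Cxcr2 (4.12), S100a8 (7.63) and S100a9 (9.46), and for Tm4sf1 the young points lie between -1.97 and -1.81.

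Of the 25 neutrophil markers listed, 21 were measured, of which 15 were called higher and 1 lower, against 15.7% and 15.0% of all genes. The median difference of the list was 1.53, against 0.17 over all genes. In 13 members the ages did not overlap, all of them higher in the old mice. Over all genes 24.6% did not overlap in either direction, and 1666 of 13553 were higher. The list's level, as the median over its members relative to the young mean, was between -0.53 and 0.25 in the young mice and was 0.85, 1.27, 0.97, 2.86 and 1.65 in the old. All old samples were above all young ones, and replicate 4 was far above the rest. Without replicate 4 the counts were 13 higher and 1 lower and the median was 1.17. Beside the genes above, the granule proteases Mmp8 (1.92) and Mmp9 (1.53), the receptor Fpr1 (2.20), the iron-binding lipocalin Lcn2 (1.61) and the amplifier of innate signalling Trem1 (1.72) rose. The colony-stimulating factor receptor Csf3r rose by only 0.51 (young 4.89 to 5.44, old 5.38 to 5.89), with overlapping groups. Elane, the elastase made at the promyelocyte stage of neutrophil development, was the member that fell, by 1.46, and Camp, which encodes the cathelicidin of secondary granules, had a difference of -0.72 that did not pass (adjusted p = 0.094 by limma). The probes of Ngp, Ltf, Mpo and Prtn3 were not above background on all 12 arrays. When all 24 arrays were fitted together, 10 members were called. That fit called 1503 of all 13553 genes, 536 of them higher.

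The lists of other myeloid cells had smaller medians. Of 19 monocyte markers measured of 20, 4 were called higher and none lower, against 15.7% and 15.0% of all genes, with a median difference of 0.48 and 18 positive differences. These 4 were Ccr2 (1.29), the receptor that releases monocytes from marrow, F13a1 (1.10), Ms4a6c (1.08) and the Fc receptor Fcgr4 (1.06). Csf1r, the receptor of the monocyte growth factor, had a difference of 0.48 and Cx3cr1 one of 0.34, and neither passed. Among 8 markers of eosinophils, basophils and mast cells measured of 13, 2 rose, against 15.7% of all genes, and all differences were positive, with a median of 0.58. Mcpt8, a protease of mouse basophils, had levels from -4.67 to -2.27 in the young mice with a median of -3.35 and of -2.45, -0.12, -0.22, 0.96 and 1.3 in the old. The averaged old replicates 1 and 6 lay within the young range and the other 4 old samples lay above it. The difference was 3.31 (SE 0.59, adjusted p = 0.000788 by limma). Gata2, a transcription factor of basophils and mast cells, rose by 1.12.

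Inflammatory genes were higher where they were called. Of 12 measured of 20 on the list of inflammatory cytokine and NF-kB genes, 7 rose, against 15.7% of all genes, and none fell, with a median difference of 0.54. Il1b, the main secreted IL-1 of myeloid cells, had levels from 0.33 to 2.19 in the young mice with a median of 1.68, and of 2.30, 3.12, 2.93, 4.52 and 3.70 in the old. The groups did not overlap, the lowest old value lay close to the highest young one, and the rise was 3.57-fold. The pattern receptors Tlr2 (1.24) and Tlr4 (1.03), their adaptor Myd88 (1.14), the IL-1-processing protease Casp1 (1.0), Nfkb1 (0.67) and Nfkb2 (0.41) were the others that rose. Nlrp3, the inflammasome sensor, differed by -0.02. Tnf, Il6 and Il1a were not above background on all arrays and have no value here. Hp, the acute phase protein haptoglobin, which neutrophils also store, was 4.86, 6.01, 5.18, 6.94 and 5.95 in the old samples, all above the young range of 3.31 to 4.05, a 4.25-fold rise.

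Few interferon-stimulated genes were called. Of 34 measured of 35, 1 was called higher and none lower, against 15.7% and 15.0% of all genes. The median difference was 0.12, and 19 differences were positive. The gene called was Gbp2 (0.71), a guanylate-binding protein. Isg15 differed by -0.38, Ifit1 by -0.44, Oas2 by 0.49 and Rsad2 by -0.67, none past the threshold.

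Of 15 genes measured of 16 for MHC class I presentation, by which cells show peptides to CD8 T cells, 6 were called higher in the old mice, against 15.7% of all genes. All 15 differences were positive, with a median of 0.53. H2-Q7 ranged from 5.35 to 5.74 in the young mice with a median of 5.52, and was 6.68, 6.20, 6.39, 6.30 and 6.18 in the old. H2-D1 ranged from 5.39 to 5.93 with a median of 5.72 in the young, and was 6.71, 6.23, 6.50, 6.32 and 6.45 in the old. Neither gene overlapped between the ages, and the rises were 1.77-fold and 1.70-fold. The class I heavy chain genes are close paralogs whose probes may share signal. H2-T23 (0.69), the light chain B2m (0.70), the peptide transporter subunit Tap2 (0.53) and the immunoproteasome subunit Psmb9 (0.49) also rose. Under scaling to the spike-in controls, none of the 15 was called by limma, 4 had an unadjusted p below 0.05 and the list's median was 0.40. That scaling called only 435 of all 13553 genes higher. Of 10 class II genes measured, none was called by limma at 0.30 median difference and 3 had an unadjusted p below 0.05, and of 34 constitutive proteasome genes 5 rose, a share close to the 15.7% of all genes.

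**Figure D3:**
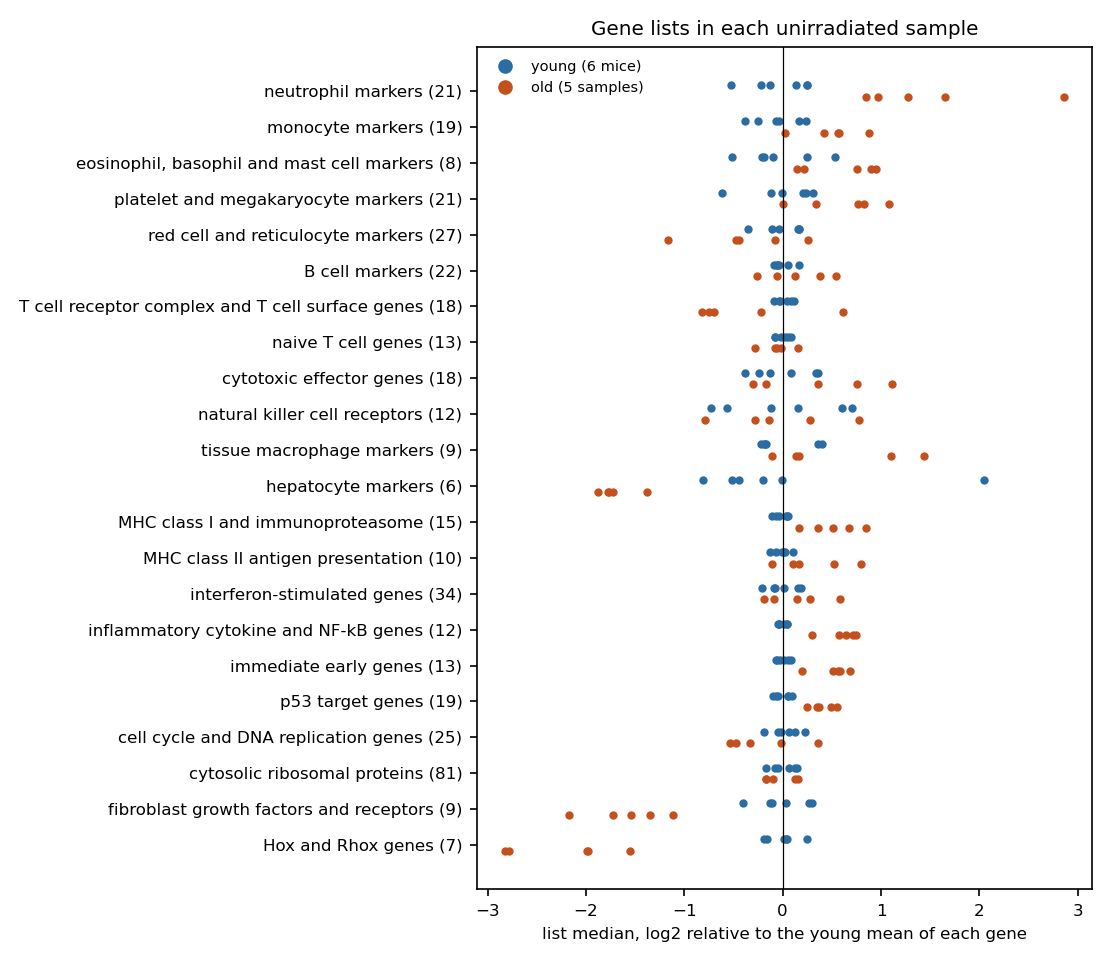
Median over the measured members of 22 gene lists (number measured in brackets) in each young (blue) and old (orange) sample, in log2 relative to each gene's young mean. Neutrophil markers of the old samples lie between 0.85 and 2.86 and those of the young between -0.53 and 0.25, and the T cell receptor list of the old samples spans both sides of the young points.

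Among T cell genes Cd4, Trat1, Dapl1 and Lef1 fell. Cd4, the coreceptor of helper T cells, had levels from 3.34 to 4.17 in the young mice with a median of 3.81, and of 1.64, 1.73, 1.49, 1.81 and 1.89 in the old. The groups were far apart, and the difference was -2.07 (SE 0.16, adjusted p = 8.53e-07 by limma), or 4.21-fold lower. Trat1, a T cell receptor adaptor, ranged from -1.37 to -0.94 in the young with a median of -1.04, and was -3.80, -3.10, -3.36, -2.43 and -2.81 in the old, or 4.04-fold lower. Dapl1, a gene of naive T cells, was at 1.65 to 2.30 in the young with a median of 2.21, and at -1.78, 0.60, -0.09, 1.06 and 0.92 in the old. Lef1, a transcription factor of naive T cells, fell from 3.15 to 3.76 in the young to 2.89, 2.42, 1.71, 2.20 and 2.31 in the old, and both of its probes were called. In each of these genes the ages did not overlap. The thymus homing receptor Ccr9, also found on plasmacytoid dendritic cells, fell by 1.90 and Igfbp4, another naive T cell gene, by 1.23.

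Foxp3 and Il2ra also fell. Foxp3, the defining transcription factor of regulatory T cells, was between -2.90 and -2.55 in the young mice with a median of -2.67 and was -3.79, -3.46, -3.50, -3.45 and -3.78 in the old. Il2ra, the high-affinity IL-2 receptor chain, was between -1.84 and -1.36 with a median of -1.63 in the young and was -2.61, -2.54, -2.43, -3.06 and -2.66 in the old. Neither gene overlapped between the ages. Izumo1r (folate receptor 4) fell by 1.09, the costimulator Tnfrsf4 by 0.76 and Icos by 0.62. In contrast Cd44, which marks antigen-experienced T cells and is also carried by myeloid cells, rose by 0.74, with a young range of 1.44 to 1.96 and old values of 2.20, 2.72, 2.51, 2.67 and 2.49. Of the 15 memory, checkpoint and regulatory genes measured of 19, these were the 1 called higher and the 5 called lower, against 15.7% and 15.0% of all genes. Positive differences were found in 8 of the 15 genes. Among them Ikzf2 (0.03) and Tnfrsf18 (0.14), which regulatory T cells also express, did not pass.

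The T cell receptor list as a whole depended on old replicates 1 and 6. Of its 18 members, all measured, 3 fell (Cd4, Trat1 and Cd8b1), a share close to the 15.0% of all genes, and none rose, with a median difference of -0.27. For 15 of the 18 the average of replicates 1 and 6 was above all 4 other old samples. Cd3d, a signalling chain of the receptor, was 4.79 there, 2.80 to 3.48 in the other old samples and 3.53 to 3.83 in the young. Lck, the kinase that starts receptor signalling, was 5.48 there, 3.70 to 4.32 in the other old samples and 4.17 to 4.54 in the young. With both arrays left out, a choice made after seeing these values, 10 of 18 were called lower, against 2009 of all 13553 genes. The list's median was then -0.58, against 0.14 over all genes. The genes gained included Cd3d (-0.63), Cd3e (-0.98), Cd3g (-0.83), Cd5 (-0.75), Cd27 (-1.02) and Lck (-0.52), while Cd4 kept a difference of -2.05 and Trat1 one of -1.84. Scaling on the median of all spots turned the list's median to 0.24, while the median of all genes rose to 0.67. Cd8b1 (-1.01) lost its call in 14 of 29 alternatives. Of the 13 naive T cell genes, 3 fell and 1 rose, against 15.0% and 15.7% of all genes, and the median was 0.08. Ccr7, the lymph node homing receptor of naive and central memory cells, differed by 0.14.

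**Figure D4:**
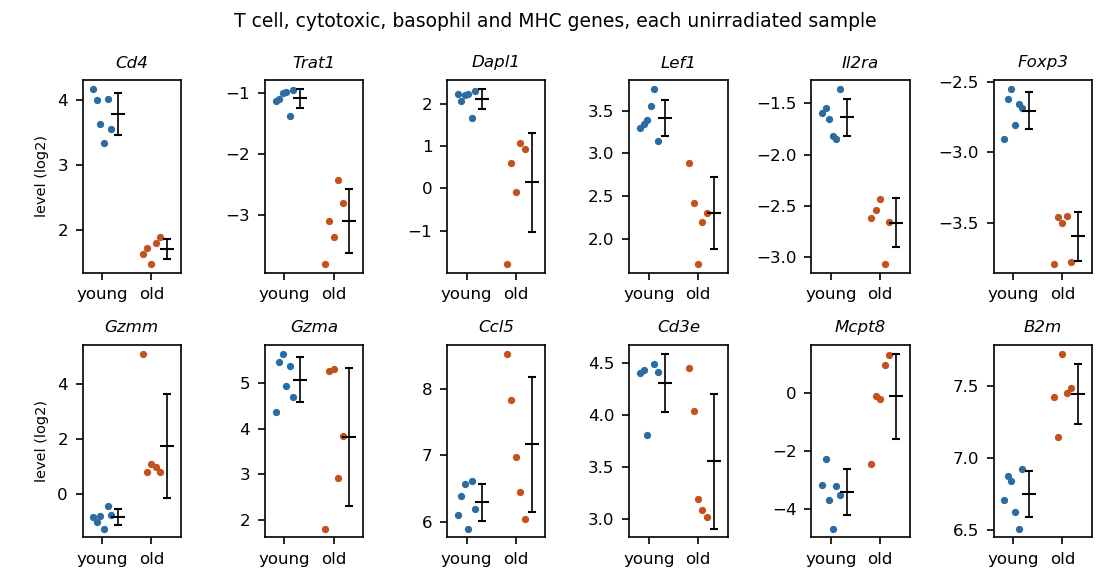
Level of 12 genes (log2 relative to the array's median) in each of 6 young (blue) and 5 old (orange) unirradiated samples, with black bars for the mean and SD. The ages are apart for Cd4 and Trat1, and a single old point, the average of replicates 1 and 6, reaches 5.10 for Gzmm while the other old points lie between 0.77 and 1.08.

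Cytotoxic genes were spread widely among the old mice. Of 18 measured, only Gzmm, a granzyme of natural killer and cytotoxic T cells, was called, against 30.7% of all genes. The list's median difference was 0.27. Gzmm ranged from -1.27 to -0.44 in the young mice with a median of -0.82 and was 5.10, 0.77, 1.08, 0.98 and 0.79 in the old. All old samples were above the young ones, and the averaged replicates 1 and 6 were far above the rest. The same sample was the highest old one for the chemokine Ccl5 (8.53) and the lowest for Gzma (1.82). The differences of Ccl5 (0.87), Gzma (-1.25), Gzmk (1.52), Eomes (1.20) and Prf1 (-0.62) did not pass. The other measured probe of Gzmk pointed the other way, at -1.85. Of 12 natural killer receptors measured of 18, none was called by limma or had an unadjusted p below 0.05, and the median was -0.16.

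No B cell marker was called by limma among the 22 measured, 2 had an unadjusted p below 0.05, and their median difference was 0.20, against 0.17 over all genes. Ms4a1 (CD20) differed by 0.18 and Pax5 by 0.20. The probes of Bcl11a, a member of this list, disagreed and ranged from -2.94 to 0.47. Of the genes of plasma cells, Xbp1, a transcription factor of secretory cells, rose by 1.04 and Sdc1 (CD138) was lower by -0.91, the latter call lost in 14 of 29 alternatives. Fcrl5, from the list of age-associated B cell genes, was lower by -0.67, but its call was lost in 5 of 29 alternatives and the difference was -0.07 with the probes' base counts regressed out.

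Platelet and megakaryocyte markers had positive differences in all 21 measured genes, with a median of 0.56, but 6 were called, against 15.7% of all genes. These included Gp1bb (1.25) and Gp1ba (0.85), chains of the von Willebrand factor receptor. Another was Itga2b (0.93), the fibrinogen receptor chain, whose call was lost in 14 of 29 alternatives. The count depended on single samples. It was 2 without young replicate 1, 4 or 6 or old replicate 3, 4 or 5, 3 without young replicate 2, 8 without young replicate 3, and 11 with old replicates 1 and 6 left out. With those 2 arrays left out, 2107 of all 13553 genes were called higher. In the authors' deposited values 0 of 16 measured were called by limma at 0.44 median difference and 7 had an unadjusted p below 0.05. Those values gave 468 of 9104 genes called higher. The platelet chemokine genes Pf4 and Ppbp differed by 0.18 and 0.47. Red cell markers leaned the other way, with 1 of 27 differences above 0, a median of -0.37 and 2 called lower, against 15.0% of all genes. The list's level was -1.16 in the average of old replicates 1 and 6, -0.48, 0.26, -0.08 and -0.44 in the other old samples and -0.35 to 0.17 in the young. With replicates 1 and 6 left out the median was -0.19 and 1 gene was called lower, against 2009 of all 13553 genes. Of the 2 called with all samples, Hbb-b2, a beta globin gene whose RNA the depletion step targets, fell by 0.62 and Xpo7 by 1.08, whereas Alas2 (-0.37), Slc4a1 (-0.50) and Hba-a1 (-0.28) did not pass.

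The falls were larger than the rises and involved other kinds of genes. Aanat encodes the enzyme that acetylates serotonin on the way to melatonin. Its level was between 2.64 and 3.63 in the young mice with a median of 3.23 and was -1.64, -2.26, -1.68, -1.16 and -0.98 in the old. The ages were far apart, and the difference was -4.77 (SE 0.23, adjusted p = 9.38e-08 by limma), or 27.2-fold lower. The other probe of Aanat fell by 2.23. Taar4, a trace amine receptor of olfactory neurons, ranged from 3.46 to 3.78 with a median of 3.67 in the young and was -0.68, -1.31, -0.44, -0.01 and 0.11 in the old, or 17.4-fold lower. Gtpbp3, a mitochondrial tRNA-modifying protein, ranged from 1.89 to 2.80 with a median of 2.43 in the young and was -1.78, -1.77, -1.38, -1.87 and -1.82 in the old, or 17.0-fold lower. The other large falls were the olfactory receptor pseudogene Olfr75-ps1 (-4.01), the neuronal adhesion gene Cntn6 (-3.87), the secretoglobin Scgb2b2 (-3.86), the casein Csn1s2b (-3.84), Ptchd1 (-3.84), the zinc finger gene Zfp940 (-3.76), Ssx9 (-3.69), the heart and slow muscle myosin light chain Myl3 (-3.64), the antibody variable segment Igkv4-53 (-3.63) and the nicotinic receptor subunit Chrna4 (-3.56). Fgf8 (-3.05), Ntrk2 (-3.09) and Erbb2 (-2.42), which encode a growth factor and receptors of epithelial and neural tissue, fell likewise. Of 9 fibroblast growth factors and receptors measured of 27, 5 fell, against 15.0% of all genes, with a median of -1.57. Among the 5 was Fgf13 (-2.18), whose other measured probe was at 0.34. Of 7 Hox and Rhox genes measured of 61, 4 fell and 2 rose, against 15.0% and 15.7% of all genes. Their median was -2.39.

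Probe composition and the irradiated arrays moved with these falls. The 599 probes lower by 2 or more held a mean of 34.8 C or T of 60 bases, against 29.97 over all 16829 probes and 29.6 in the 97 probes higher by 1.5 or more. The motif CCTTCT, searched on the probe strand as printed, was in 12.9% of the falling probes and 2.77% of all, and its reverse complement AGAAGG in 1.0% and 2.79%. CTGCC was in 22.9% and 8.08%, and GGCAG in 3.51% and 4.92%. The share of probes that fell by 2 or more rose from 0.222% among probes with 1 to 21 C or T to 3.10% at 30 to 33 and 16.1% at 42 or more. Across probes, which are not independent replicates, the difference correlated with the count of C at r = -0.33 (n = 16829), a description only. Of 102 genes with a probe that fell by 2 or more and a further measured probe, every probe fell by 1 or more in 16, another probe was above -1 in 86 and another was at 0 or above in 64. The falling probe had more C and T in 61 of those 86. Of 22 genes with a probe that rose by 1.5 or more and a further probe, every probe rose by 1 or more in 16. The part of probe composition in the falls was not tested beyond this, and with the base counts regressed out of each array Aanat kept a difference of -4.06 and 3168 of the 4166 calls were kept.

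**Figure D5:**
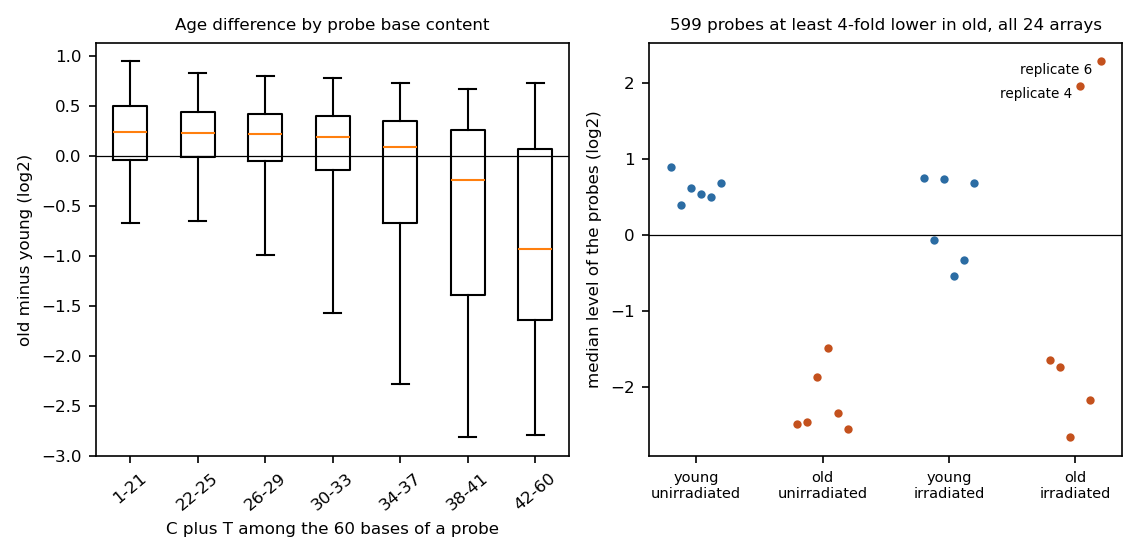
Left, old minus young difference (log2) of 16829 probes grouped by their number of C and T bases of 60, with boxes for the median and quartiles and whiskers from the 5th to the 95th percentile; right, the median level (log2) of the 599 probes lower by 2 or more on each of the 24 arrays. The median difference falls from 0.24 with 1 to 21 C or T to -0.93 with 42 or more, and old irradiated replicates 4 and 6 (1.96 and 2.28) stand above every other array.

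The 599 falling probes were then read on the irradiated arrays, which the choice of probes did not use. Their median level was between -0.53 and 0.75 on the young irradiated arrays, against 0.40 to 0.89 on the young unirradiated ones. It was -0.07, -0.53 and -0.33 on young irradiated replicates 2, 4 and 5, below the lowest young unirradiated array. On 4 old irradiated arrays it was between -2.66 and -1.65, near the -2.55 to -1.48 of the old unirradiated ones. On old irradiated replicates 4 and 6 it was 1.96 and 2.28, above all young arrays. On 576 of the 599 probes (96.2%) both arrays lay above the midpoint between the unirradiated ages, and on 315 all 6 young irradiated arrays did. The median signals over all spots of replicates 4 and 6, 8.66 and 8.84, were the lowest of the 24 arrays, and the part of signal or processing in this was not tested. Aanat was 4.19 and 4.43 on these arrays, -1.59 to -0.11 on the other 4 old irradiated arrays and 2.65 to 4.11 on the young irradiated ones. Cd4 shared this pattern in part, at 3.64 and 3.79 on those arrays, 1.49 to 2.34 on the other 4 and 3.02 to 4.28 on the young irradiated ones.

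The rises were read in the irradiated mice in the same way. Of the 15 largest rises, 11 had the other 4 old irradiated arrays above all 6 young irradiated ones, and 3 (Tm4sf1, Stfa2 and Stfa2l1) had all 6 above. Of the 15 largest falls, 11 had those 4 arrays below all young ones and none had all 6 below. The share of all genes with such gaps was not computed, so these counts have nothing to be set against. The 4 arrays were chosen after replicates 4 and 6 were seen to differ. Age, slide and scan day cannot be told apart on the irradiated arrays either. Cxcr2 was 3.32 to 5.61 on the 4 arrays, 1.67 and 2.39 on replicates 4 and 6, and 0.88 to 3.13 on the young arrays. Trat1 did not keep its gap after irradiation, at -3.99 to -1.98 in the young and -3.30 to -1.84 in the old. An interaction of age with irradiation was called by limma for 1 of 11378 genes measured on all 24 arrays (0.00879%), and 1972 genes had an unadjusted p below 0.05. The gene was Zbp1, a sensor of nucleic acids, with an age difference of 0.02 in unirradiated and -1.68 in irradiated mice.

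Liver transcripts were present unevenly in the young samples. Of 24 hepatocyte markers on the array, 12 to 24 were well above background on a young array and 6 to 10 on an old one, with all 24 in young replicate 5. Alb, which encodes albumin, ranged from -5.80 to 5.21 on the young arrays and from -6.97 to -6.31 on the old, and it was well above background on 4 young arrays and no old one. Of 6 hepatocyte markers measured by the rule, 4 fell and 1 rose, against 15.0% and 15.7% of all genes. Fgb (-3.71), Cyp2e1 (-3.02), Apoa2 (-1.82) and Apoc3 (-1.59) fell, and Hp rose. Serpina1e, an antitrypsin of liver, was between 0.31 and 5.25 in the young mice with a median of 1.20 and was -2.64, -1.79, -1.83, -1.28 and -2.29 in the old. The ages did not overlap for Serpina1e or Fgb, and the call of both was lost when all 24 arrays were fitted. The part of liver RNA in these differences was not tested.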

How the data were processed

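Signals came from Agilent 1-colour mouse arrays. Per the file headers, intensity (background-subtracted signal per spot) was extracted with Agilent Feature Extraction 12.0.2. The authors also deposited normalized log2 values, used here only as an alternative. Control and non-uniform spots were left out, log2 was taken, repeat spots were averaged, and each array was centred on the median of probes well above background on all 12 arrays. A gene was read from its probe with the highest mean signal and named by accession (10561), symbol (517), synonym (31) or the file's name only (2444). Ages were compared with limma 3.58.1 (R 4.3.3), and the interaction used 24 arrays. The test had been planned with 6 samples of each age, before old replicates 1 and 6 were averaged. Where labels do not say more, p-values measure the spread between these samples. The comparison, the 40 gene lists and the tests were chosen with earlier results of these data known. Named genes were the 15 largest rises and falls with non-overlapping groups, up to 5 brightest and 4 called members of each list, Gapdh, Actb, B2m and the 10 most variable genes of old mice; further list members were chosen after their values were seen. Same-numbered samples did not deviate together (correlations -0.15 to 0.27) and were not paired. The values of a few list members and probes are not reported here. The model was tested on simulated data.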

Additional observations from a re-analysis of the deposited data

Results flagged for a closer look

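A highest or lowest sample stood apart from its group in 18 of the 366 groups of values tested, and chance alone gives about 1 in 20 such groups. Old replicate 4 stood apart for Igfbp6 (1.87, others -0.68 to -0.17), Stfa2 (4.25, others 1.76 to 2.39) and Stfa2l1 (3.96, others 1.49 to 2.04). The average of old replicates 1 and 6 stood apart for Gzmm (5.10, others 0.77 to 1.08), Gata2 (-0.32, others 0.34 to 0.60) and Eng (-4.44, others -3.68 to -3.52).

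Young replicate 5, the sample with the most liver transcripts, stood apart for the liver gene Apoa2 (5.76, others 2.46 to 3.30), the hepatocyte list (2.05, others -0.81 to -0.01), Gapdh (6.55, others 6.10 to 6.25) and Fgfr2 (-1.47, others 0.19 to 1.09). Young replicate 2 stood apart for Ssx9 (0.71), Tef (2.28) and Fgf13 (-0.77). Young replicate 3 did so for Xbp1 (2.49) and young replicate 6 for Klf4 (0.75). Among the old samples, replicate 3 stood apart for Gtpbp3 (-1.38) and the NRF2 list (0.64), and replicate 2 for Psmd9 (-1.23).

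The age difference of Zbp1 differed between irradiated and unirradiated mice, with an interaction of -1.70 (adjusted p = 0.041 by limma over 11378 genes).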

How the results depend on the processing

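The balance of directions depended on the scaling. With the median of all spots as the scale, 9303 genes were called, 8012 higher and 1291 lower, and the median of all genes was 0.67. With spike-in scaling 2510 were called, 435 of them higher (17.3%, against 51.2%), and the authors' values gave 2344 and 468. The filter for 1.5-fold changes left 4014 genes, with 2387 called and 591 higher. Only genes with 2 or more probes gave 750 calls, 518 higher and 232 lower. The fit of all 24 arrays gave 1503 calls, 536 higher and 967 lower, and shared 1477 with the 4166. A random block for slide gave 7044 calls, 4423 higher, with an estimated correlation of -0.21. With the replicate block, 2925 genes were called and 1166 were higher. Leaving out each replicate gave 3353 to 4175 calls, 1509 to 2139 higher and 1844 to 2036 lower. Under the remaining alternatives the 3 counts stayed within 1.5 times. The interaction count of 1 (limma) was 0 with the median of all spots and with the replicate block (2559 and 1487 at an unadjusted p below 0.05), 2 with old replicates 1 and 6 as separate samples, 74 with the random slide term, 50 when old irradiated replicates 4 and 6 were omitted, and 0 to 89 with each replicate left out, the 89 without old irradiated replicate 3. With the median of all spots Dbp turned to 0.19, and with the base counts regressed out Tinf2 turned to -0.080. The cause of these changes was not tested. The merged, omitted and separate forms of old replicates 1 and 6, the 2-probe genes, the base counts and the omission of old irradiated replicates 4 and 6 were chosen after seeing the data. Signal over background limits all genes, since probes dim in either age were left out.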

Other observations

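Of 19 p53 targets measured, 7 rose, against 15.7% of all genes, and none fell, with a median difference of 0.42. Phlda3, a p53-induced inhibitor of AKT, ranged from -0.60 to 0.22 in the young mice and was 0.59, 0.63, 0.85, 1.18 and 0.83 in the old, and the death receptor Fas rose by 0.94, Xpc by 0.79 and Bax by 0.45, the last call lost in 15 of 29 alternatives. The count was 1 in the fit of all 24 arrays, where 536 of all 13553 genes were called higher. Of 25 cell cycle and DNA replication genes, 3 fell, a share close to the 15.0% of all genes, with a median of -0.33. These were Tyms (-1.3), Gins2 (-1.17) and Mki67 (-0.59, its call lost in 16 of 29 alternatives). On the list of CDK inhibitors and senescence-related genes, 3 of 8 measured were called higher, against 15.7% of all genes. These were Cdkn2c (0.95), Lmnb1 (0.92) and Hmgb1 (0.43). The calls of Lmnb1 and Hmgb1 were lost in 8 and 10 of 29 alternatives, and these rises are not a measure of senescence. Of 11 regulators of DNA methylation and chromatin, 3 fell and 1 rose, against 15.0% and 15.7% of all genes. Tet1 (-2.24), Dnmt3b (-2.03) and Tet3 (-0.70) fell and Kdm6b rose by 0.71. The other probes of Dnmt3b were not all called, and the highest of them was at 0.05. The Tet1 and Dnmt3b probes given here hold 36 and 33 C or T. The call of Tet3 was lost in 7 of 29 alternatives, and its difference was -0.25 with the probes' base counts regressed out.

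Of 13 immediate early genes, 5 rose (Ier2 by 1.18, Jun by 1.0, Klf4 by 0.72, Atf3 by 0.70 and Klf6 by 0.58) and 2 fell (Egr1 by 0.53 and Fosb by 0.50). The list's median difference was 0.51. Beside each list in this paragraph, 15.7% of all genes were called higher and 15.0% lower. Of 10 clock genes, Nfil3 (1.47), Tef (0.73) and Per1 (0.68) rose and Dbp (-0.32, its call lost in 16 of 29 alternatives) fell. Of 10 glucocorticoid-responsive genes, Cebpd (1.67) and Nr3c1 (0.50) rose. Of 17 chaperones 6 rose, among them Hsph1 (0.62) and Hspa5 (0.54). Among 12 NRF2 targets Gsr (0.95) and G6pdx (0.84) rose, and among 13 sirtuin and telomere genes Sirt3 (0.51) and Tinf2 (0.37), both shares close to that of all genes. The calls of Gsr, Sirt3 and Tinf2 were lost in 13, 13 and 14 of 29 alternatives.

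Mitochondrial ribosomal proteins and oxidative phosphorylation subunits were near the median of all genes (0.17), and cytosolic ribosomal proteins lay below it. Of 81 cytosolic ribosomal proteins none rose and 2 fell (median -0.03). Of 76 mitochondrial ribosomal proteins 5 rose and 1 fell (0.16), and of 79 oxidative phosphorylation subunits 7 rose and 2 fell (0.13). Over all genes 15.7% rose and 15.0% fell. Of the reference genes, Gapdh rose by 0.62 and Actb differed by 0.39 without passing.

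The 9 tissue macrophage markers measured had a median difference of -0.05, and only 4 differences were positive. Those 4 were called higher, against 15.7% of all genes. They were Slc40a1 (1.52), Spic (1.3), Trem2 (1.26) and Hmox1 (1.12, but 0.17 as the mean of all its probes). C1qb fell by 2.20. Of 9 dendritic cell markers Zbtb46 (-2.36) and Ccr9 (-1.90) fell and none was called higher, but 6 differences were positive and the list's median was 0.30. Of 5 endothelial markers Eng fell by 1.19, none of 4 stem and progenitor genes was called by limma (1 at an unadjusted p below 0.05), 2 of 3 immunoglobulin genes fell, and 2 of 4 ErbB and neurotrophin genes fell. Over all genes 15.0% were called lower, and these lists are small.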
